A study of Homo sapiens with 4 samples.

Results

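The 35 genes described here are NF-kB subunits, TNF receptors and targets, chosen by symbol and found in the tables through their NCBI Gene IDs. They are 11 ligands and cytokines, 2 receptors, 5 subunits, 5 inhibitors and 12 other targets. Of the 35, 32 had a row in at least 1 library, out of 18882 gene IDs with a row in any library. IL6, SAA1 and PTGS2 had none, and a gene without a row could not be told from one with 0 reads.

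NF-kB is a family of transcription factors made as dimers of RELA, RELB, REL and the processed products of NFKB1 and NFKB2. In resting cells the dimers are held in the cytoplasm by inhibitors of the IkB family, and signalling from tumor necrosis factor (TNF) through its receptors leads to the breakdown of these inhibitors and entry of the dimers into the nucleus. Many NF-kB targets are cytokines, chemokines and survival factors, and others, such as NFKBIA and TNFAIP3, encode the inhibitors that shut the pathway off again. In breast tumors of luminal origin the pathway is known for its links to inflammation, cell survival and migration.

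Messenger RNA was sequenced from BT-474, a HER2-positive breast cancer cell line of luminal B-like type, grown in RPMI-1640 with serum. The control group was 2 libraries of wild-type cells (replicates 1 and 2). The BT-474 NRP-1 group was 2 libraries (replicates 2 and 3) of cells with stable overexpression of neuropilin-1 (NRP-1), a co-receptor of the cell surface, from a pPTuner IRES2 plasmid. NRP-1 cells came from transfected colonies selected in Geneticin G418, a treatment the wild-type cells did not share, so NRP-1, the plasmid and the selection cannot be told apart in this comparison. No library of cells with the empty plasmid was analysed here. The labels do not say whether the libraries of a group came from separate cultures or clones, so p-values measure the spread between these libraries, which may be technical.

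Depth was 8243595 and 8308030 expected reads for the controls, and 8395510 and 8448926 for the NRP-1 libraries. After genes with few reads were removed, 14298 genes were tested with edgeR's quasi-likelihood test, and a gene was called at an adjusted p under 0.05 over all of them. NRP1 had 7 and 8 reads in the controls and 103 and 62 in the NRP-1 libraries (log2 fold change 3.38, SE 0.42, adjusted p = 0.044). All 9 markers of the luminal line were read in every library, with ERBB2 at 46249 to 59100 reads. With edgeR 0 of the 9 were called, against 1.09% of all genes. GATA3 had 184 and 186 reads in the controls and 688 and 289 in the NRP-1 libraries (log2 fold change 1.34, adjusted p = 0.126). KRT8, KRT18 and KRT19 were also higher in both NRP-1 libraries, and EPCAM and CDH1 were lower in both. ESR1 (395 and 437 against 273 and 735) and PGR (702 and 717 against 419 and 1138) split the NRP-1 libraries. The biological coefficient of variation, the typical spread of a gene between libraries of a group, was 0.0640 between the controls and 0.225 between the NRP-1 libraries. With either control library left out, or with no filter on low counts, 0 of all genes tested were called, so each edgeR call below, that of NRP1 included, depends on both controls and on the filter. DESeq2 was not run without a library or without the filter. Of the immune markers, CD14, CD3E and TYROBP had no reads, and the summed level of the list was 98.8 to 113 CPM (reads scaled to library size) in the controls and 75.0 to 78.0 CPM in the NRP-1 libraries. Within it CD68, which epithelial cell lines also express, had 320, 281, 107 and 89 reads (log2 fold change -1.68, adjusted p = 0.042). The 4 fibroblast markers summed to 212 to 214 CPM in the controls and 160 to 178 CPM in the NRP-1 libraries, nearly all of it COL1A1, with no reads of PDGFRB, and the 3 endothelial markers to 5.67 to 9.004 CPM and 11.6 to 13.4 CPM. The part of these markers in the results was not tested.

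The sequences below are shown because many of these genes carry the letters that NF-kB binds close to their start. They are stretches of the 250 bases before the transcription start in RefSeq (GRCh38.p14), written 5' to 3' on the strand of the gene, with each match to the 10-base NF-kB consensus in capitals. Both strands were searched and overlapping matches were joined. The first 5 belong to genes whose reads are described in detail further on.
NFKBIA (chr14:35404781-35404870, minus strand): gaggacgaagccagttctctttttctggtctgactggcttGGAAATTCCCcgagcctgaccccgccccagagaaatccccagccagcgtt
TNFAIP3 (chr6:137867152-137867253, plus strand): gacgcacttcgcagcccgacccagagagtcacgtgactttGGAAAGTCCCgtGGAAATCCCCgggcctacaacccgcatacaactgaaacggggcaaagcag
LCN2 (chr9:128149238-128149327, plus strand): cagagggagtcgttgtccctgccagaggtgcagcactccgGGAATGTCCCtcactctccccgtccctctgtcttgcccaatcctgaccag
BIRC3 (chr11:102317245-102317398, plus strand): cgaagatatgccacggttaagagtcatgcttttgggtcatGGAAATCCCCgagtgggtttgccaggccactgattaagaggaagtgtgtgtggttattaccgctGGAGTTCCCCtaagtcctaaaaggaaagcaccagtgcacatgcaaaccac
NFKB1 (chr4:102501270-102501358, plus strand): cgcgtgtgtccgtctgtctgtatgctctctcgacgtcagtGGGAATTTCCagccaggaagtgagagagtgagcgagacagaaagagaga
TNFAIP3 and BIRC3 each held 2 separate matches, and the other 3 genes held 1.

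The next 3 are from the chemokine genes CXCL1, CXCL2 and CXCL3, shown because their promoters are near copies of each other.
CXCL1 (chr4:73869274-73869364, plus strand): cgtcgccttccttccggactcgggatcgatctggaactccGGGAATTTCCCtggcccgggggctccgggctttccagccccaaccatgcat
CXCL2 (chr4:74099223-74099313, minus strand): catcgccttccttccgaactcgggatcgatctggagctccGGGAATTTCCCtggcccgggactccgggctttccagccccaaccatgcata
CXCL3 (chr4:74038718-74038808, minus strand): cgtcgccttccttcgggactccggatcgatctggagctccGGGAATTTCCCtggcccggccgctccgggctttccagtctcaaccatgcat
These stretches were 93.5% (CXCL1 and CXCL2), 92.3% (CXCL1 and CXCL3) and 89.1% (CXCL2 and CXCL3) identical, and all 3 held the same 11 letters in capitals.

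A match was found in 14 of the 29 member promoters that the RefSeq table holds (48.3%), against 1380 of all 27305 promoters in it (5.05%). Besides the genes printed, the promoters of CCL20, IL6, IL32, NFKBIZ, REL and IRF1 held one. Among the genes of NF-kB signalling that are not members it was 2 of 35 promoters, and among 26 further NF-kB targets it was 13. A match describes the letters only. The members were chosen in part as known targets, so a high share among them is no independent finding.

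Of the 35 genes, 26 had enough reads to be tested, and 23 of these had a log2 fold change below 0 in NRP-1 cells against control cells. The median was -0.74, where the median over all 14298 genes tested was 0.017 and 48.2% of them were below 0. NFKB2, the subunit of the non-canonical pathway, and LCN2, a secreted siderophore-binding protein, were called lower, and 0 were called higher. Over all genes 1.09% were called, 0.678% lower and 0.413% higher. With DESeq2, 8 of the 26 were called lower and 0 higher, against 3.89% and 2.78% of all genes. At an unadjusted p under 0.05, 10 of the 26 were lower, against 12.1% of all genes tested, and only NFKB1 was higher, against 10.8%. In 18 of the 26 both NRP-1 libraries lay below both controls (28.3% of all genes), and in 1 both lay above (27.9%). These libraries are of bulk RNA, so fewer cells of a kind and less RNA per cell cannot be told apart. TNF and LCN2 also stand in the study's list of downregulated genes chosen on these libraries, so they are not independent evidence of direction. Without them, 21 of 24 tested genes were below 0 and the median was -0.56. The members were chosen with earlier results of these data known, so these counts and medians describe the list and are not independent evidence.

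**Figure D1:**
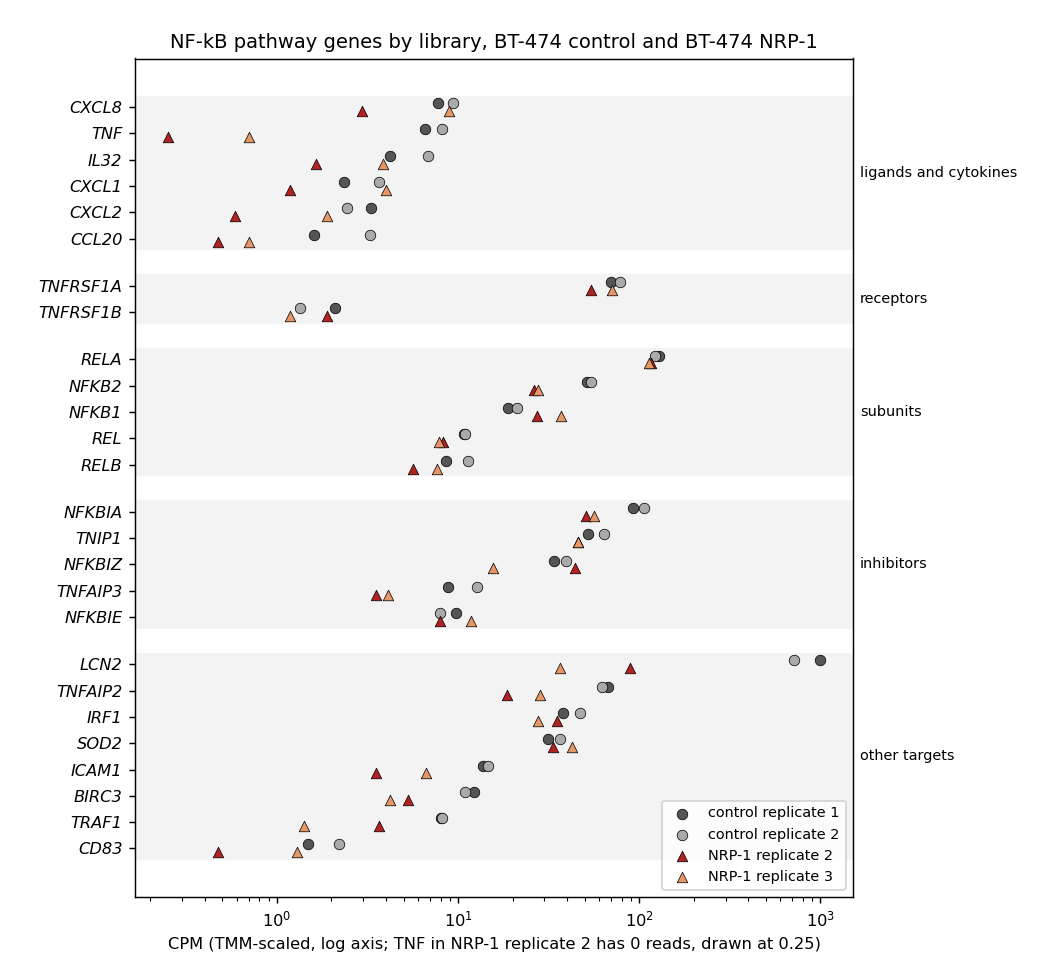
Level (CPM, TMM-scaled, log axis) of the 26 tested genes, by role, in the 2 control libraries (circles) and the 2 NRP-1 libraries (triangles), each point 1 library. Each row is to be read on its own, since CPM does not correct for gene length. TNF and LCN2 show the widest gaps between the groups, and the 18 genes with both triangles left of both circles include 7 of the 8 tested other targets.

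TNF, the cytokine that starts the canonical pathway, had 53 and 67 reads in the control libraries, 0 in NRP-1 replicate 2 and 6 in NRP-1 replicate 3. It was low in both NRP-1 libraries and the groups did not overlap. The level was 7.34 ± 1.15 CPM (SD, n = 2) in the controls and 0.352 ± 0.498 CPM (SD, n = 2) in the NRP-1 cells. The log2 fold change was -4.32 (SE 0.77, 95% interval -6.22 to -2.43), and its adjusted p of 0.062 missed the threshold. Set against the floor of 3 reads that a count of 0 allows, TNF was at least 20.3-fold lower in NRP-1 replicate 2 than in the mean control, and this floor covers counting error only. Without NRP-1 replicate 2, the log2 fold change of TNF was -3.36. The study shortlisted TNF for real-time qPCR but did not name it among the genes found significantly lower by that method.

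Among the chemokines, CCL20, which draws lymphocytes and dendritic cells through CCR6, had 13 and 27 reads in the controls and 4 and 6 in the NRP-1 libraries. Both NRP-1 libraries were below both controls (log2 fold change -2.03, SE 0.59, adjusted p = 0.122). CXCL8, a chemokine for neutrophils, had 63 and 77 reads in the controls and 25 and 76 in the NRP-1 libraries. NRP-1 replicate 3 lay inside the range of the controls and replicate 2 below it, so the groups overlapped (log2 fold change -0.53, adjusted p = 0.574). CXCL1 had 19 and 30 reads in the controls and 10 and 34 in the NRP-1 libraries, 1 below both controls and 1 above (log2 fold change -0.21, adjusted p = 0.868). For CXCL2 the reads were 27 and 20 against 5 and 16 (log2 fold change -1.21, adjusted p = 0.277). CXCL3 had 8 and 2 against 0 and 3 and was not tested.

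CXCL1, CXCL2 and CXCL3 share long stretches of transcript, so the deposited counts may have split reads between them. In the best local alignments, CXCL1 was 88.4% identical to CXCL2 over 1102 columns and 91.4% identical to CXCL3 over 372 columns. Summed, the 3 genes had 54 and 52 reads in the controls and 15 and 53 in the NRP-1 libraries (log2 fold change -0.70, SE 0.55, adjusted p = 0.496). The sum was again low in NRP-1 replicate 2 alone. IL32, a cytokine that induces TNF, had 34 and 56 reads in the controls and 14 and 33 in the NRP-1 libraries, the last of these only just below the controls (log2 fold change -0.99, adjusted p = 0.290). The median log2 fold change of the 6 tested ligands and cytokines was -1.10. In 4 of them both NRP-1 libraries lay below both controls, against 28.3% of all genes. IL1A had 1 and 1 against 0 and 0 reads, IL1B 0 and 0 against 2 and 2, and CCL2 1 and 1 against 3 and 3, all at or under the floor.

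TNFRSF1A, which encodes the broadly expressed receptor TNFR1, had 564 and 642 reads in the controls and 463 and 603 in the NRP-1 libraries. The groups overlapped, and the log2 fold change was -0.24 (SE 0.17, 95% interval -0.65 to 0.18, adjusted p = 0.452). TNFRSF1B, which encodes TNFR2, had 17 and 11 reads against 16 and 10. Its groups overlapped as well, and at this depth the interval of its log2 fold change ran from -1.36 to 1.03 (estimate -0.17, adjusted p = 0.871). Neither receptor mRNA passed the test, and the interval for TNFRSF1B still holds changes of more than 2-fold in either direction. Per length, in FPKM (fragments scaled to library size and transcript length), TNFRSF1A stood at 32.2 ± 2.79 (SD, n = 2) in the controls and TNFRSF1B at 0.450 ± 0.127 FPKM (SD, n = 2). By western blot, the study reported more TNFR2 protein and less TNFR1 protein in the NRP-1 cells. These libraries measure mRNA only and not protein.

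The 5 subunits had log2 fold changes from -0.97 to 0.68. RELA, whose product p65 carries a transactivation domain, was the most abundant per length, with 48.8 and 46.2 FPKM in the controls and 45.4 and 43.8 FPKM in the NRP-1 libraries. The log2 fold change of RELA was -0.13 (SE 0.12, 95% interval -0.41 to 0.16, adjusted p = 0.564). By western blot, the study reported more phosphorylated p65 in the NRP-1 cells and read it as activation of the NF-kB pathway. Protein and its phosphorylation are not measured by these libraries. NFKB2, whose precursor p100 is cut to p52 in the non-canonical pathway, fell by 0.97 on the log2 scale (SE 0.14, adjusted p = 0.048). It had 419 and 446 reads in the controls and 224 and 236 in the NRP-1 libraries, so that the 2 libraries of each group lay close together and the groups were far apart. The level was 52.9 ± 1.87 CPM against 27.0 ± 0.971 CPM (SD, n = 2 each), which was 1.96-fold lower. The call was lost with limma and with library sizes without TMM.

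NFKB1, which encodes p105 and its product p50, had an estimate in the other direction. It had 153 and 174 reads in the controls and 231 and 314 in the NRP-1 libraries, with both NRP-1 libraries above both controls (log2 fold change 0.68, SE 0.21, adjusted p = 0.138). It was the only tested member with that order. RELB, the partner of p52, had 70 and 93 reads against 48 and 65 (log2 fold change -0.59, adjusted p = 0.279). REL had 87 and 90 against 70 and 67 (log2 fold change -0.43, adjusted p = 0.300). In both, the NRP-1 libraries were below the controls, by less than the test could call.

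NFKB1 and NFKB2 were also set against each other within each library. NFKB2 over NFKB1, in FPKM, was 3.57 and 3.35 in the controls and 1.27 and 0.990 in the NRP-1 libraries. NFKB2 was thus above NFKB1 per length in 3 of the 4 libraries and level with it in NRP-1 replicate 3. RELA over NFKB2, in FPKM, was 3.04 and 2.72 in the controls and 5.33 and 4.90 in the NRP-1 libraries. These ratios were not tested, and with 2 libraries against 2 the smallest two-sided p an exact permutation test can give is 0.33.

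**Figure D2:**
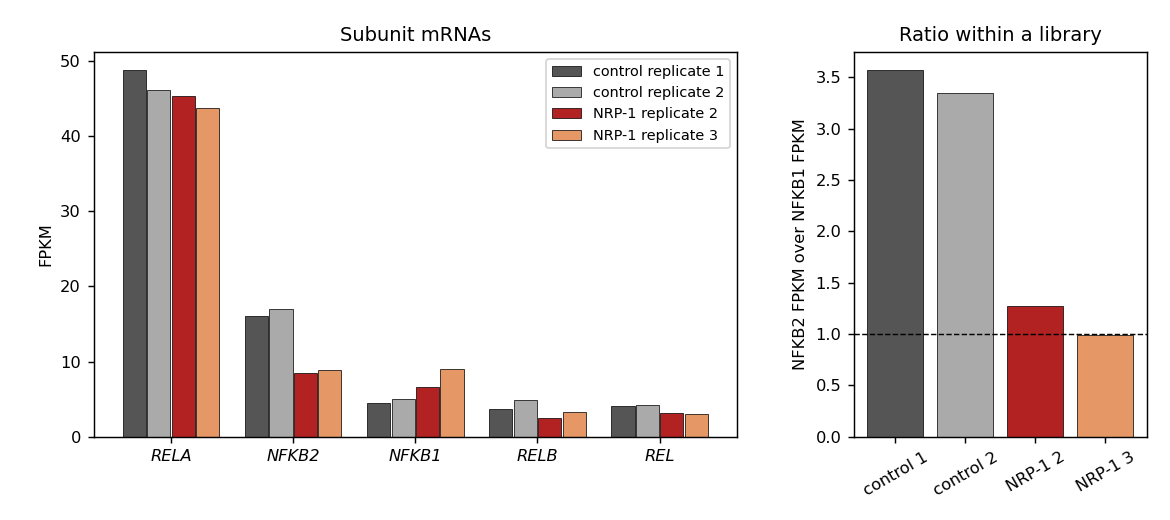
Left, FPKM of the 5 NF-kB subunit mRNAs in each of the 4 libraries. Right, NFKB2 FPKM divided by NFKB1 FPKM in each library, with a dashed line at 1. NFKB2 bars are lower and NFKB1 bars higher in the NRP-1 libraries, RELA lies between 43.8 and 48.8 FPKM, and the ratio is 3.35 or more in the controls and 1.27 or less in the NRP-1 libraries.

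Of the inhibitors, NFKBIA and TNFAIP3 had the largest differences. NFKBIA, the IkB-alpha protein that NF-kB itself induces, had 746 and 878 reads in the controls and 431 and 477 in the NRP-1 libraries. The groups were well apart, at 99.4 ± 10.6 CPM against 53.3 ± 3.77 CPM (SD, n = 2 each), a 1.86-fold difference (log2 fold change -0.90, SE 0.14, adjusted p = 0.054). TNFAIP3, the ubiquitin-editing enzyme A20, had 71 and 104 reads against 30 and 35 (log2 fold change -1.48, SE 0.30, adjusted p = 0.073), or 10.7 ± 2.76 CPM against 3.82 ± 0.412 CPM (SD, n = 2 each). Both missed the threshold with edgeR and passed it with DESeq2 (adjusted p of 0.0011 and 0.026). NFKBIA over RELA, in FPKM, was 1.18 and 1.46 in the controls and 0.722 and 0.822 in the NRP-1 libraries.

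The other 3 inhibitors had estimates nearer 0. TNIP1, a binding partner of A20, had 421 and 528 reads in the controls and 392 and 391 in the NRP-1 libraries (log2 fold change -0.34, adjusted p = 0.264). NFKBIE, which encodes IkB-epsilon, had 79 and 65 reads against 68 and 100, with overlapping groups (log2 fold change 0.16, adjusted p = 0.773). NFKBIZ, a nuclear IkB protein that acts as a coactivator, split the NRP-1 libraries. It had 274 and 325 reads in the controls, 377 in NRP-1 replicate 2 and 132 in NRP-1 replicate 3, so 1 NRP-1 library was above both controls and the other below both (log2 fold change -0.29, adjusted p = 0.742). The median over the 5 genes grouped here as inhibitors, with NFKBIZ among them, was -0.34.

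LCN2, known as lipocalin-2, had the highest level per length of any member. It had 8096 and 5855 reads in the controls and 759 and 310 in the NRP-1 libraries, and the higher NRP-1 library was below the lower control by a wide margin. Per length it stood at 1201 and 862 FPKM against 111 and 44.9 FPKM. LCN2 fell by 3.77 on the log2 scale (SE 0.45, 95% interval -4.86 to -2.67, adjusted p = 0.043), which was 13.6-fold lower. The call was lost with limma at either pseudocount, where the direction was the same. The libraries within each group also differed, and NRP-1 replicate 3 was the lower of its pair.

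A further 5 targets had log2 fold changes between -1.05 and -1.67. TNFAIP2, a TNF-induced protein of membrane protrusions, had 546 and 510 reads in the controls and 159 and 241 in the NRP-1 libraries (log2 fold change -1.46, SE 0.22, adjusted p = 0.051). BIRC3, the ubiquitin ligase cIAP2 that joins the TNF receptor complex and blocks cell death, had 100 and 90 reads against 45 and 36 (log2 fold change -1.29, SE 0.25, adjusted p = 0.070). ICAM1, an adhesion molecule for leukocytes, had 111 and 120 reads against 30 and 57 (log2 fold change -1.47, SE 0.33, adjusted p = 0.082). In all 3 the groups were far apart for the spread within them, and all 3 passed with DESeq2.

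TRAF1, an adaptor that binds TNF receptor 2 and the cIAP proteins, had 65 and 67 reads in the controls and 31 and 12 in the NRP-1 libraries (log2 fold change -1.67, SE 0.45, adjusted p = 0.107). Its controls were nearly equal and its NRP-1 libraries were not. CD83, a surface glycoprotein, had 12 and 18 reads against 4 and 11 (log2 fold change -1.05, adjusted p = 0.350). IRF1, a transcription factor shared with the interferon response, had 308 and 387 reads against 299 and 235 (log2 fold change -0.44, adjusted p = 0.248). In both genes the NRP-1 libraries lay below the controls, though 1 of them only just.

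SOD2, the mitochondrial superoxide dismutase, was the exception among the 8 tested targets. It had 255 and 301 reads in the controls and 285 and 363 in the NRP-1 libraries, with overlapping groups (log2 fold change 0.16, adjusted p = 0.643). The median log2 fold change of these 8 was -1.37, and in 7 of them both NRP-1 libraries lay below both controls, against 28.3% of all genes. C3, the central complement protein, had 9 and 4 against 10 and 12 reads, and SAA2, an acute-phase protein, had 4 and 14 against 5 and 8, both too few to test. The transcripts of SAA1 and SAA2 were 99.6% identical over 235 aligned columns, so reads listed for SAA2 may stem from either.

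**Figure D3:**
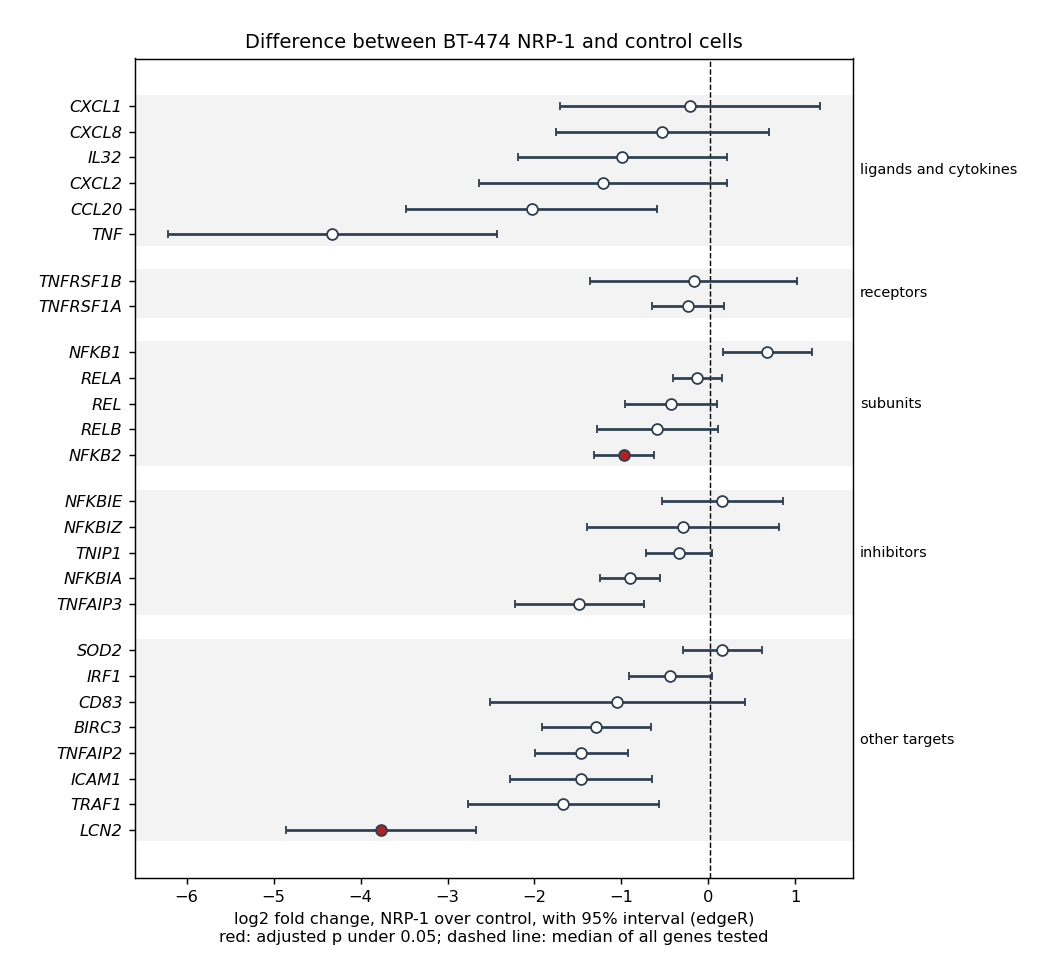
Log2 fold change (NRP-1 over control, edgeR) of the 26 tested genes with its 95% interval, by role. Red points are NFKB2 and LCN2, the genes with an adjusted p under 0.05, and the dashed line is the median of all genes tested (0.017). Only NFKB1, NFKBIE and SOD2 have points above 0.

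The NRP-1 libraries differed from each other for a part of these genes. Set against both controls alone, NRP-1 replicate 2 gave a median log2 fold change of -1.07 over the 26 genes and NRP-1 replicate 3 gave -0.59. For all genes tested the same medians were -0.010 and -0.016. The chemokines and IL32 were lower in replicate 2. CXCL8 had a log2 fold change of -1.54 in replicate 2 and 0.050 in replicate 3, and CXCL1 had -1.34 and 0.40. LCN2, TRAF1 and NFKBIZ were lower in replicate 3, at -4.56, -2.52 and -1.25, against -3.26, -1.14 and 0.28 in replicate 2. NFKB2 (-1.01 and -0.94), NFKBIA (-0.97 and -0.84) and TNFAIP3 (-1.60 and -1.39) had close values in both.

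**Figure D4:**
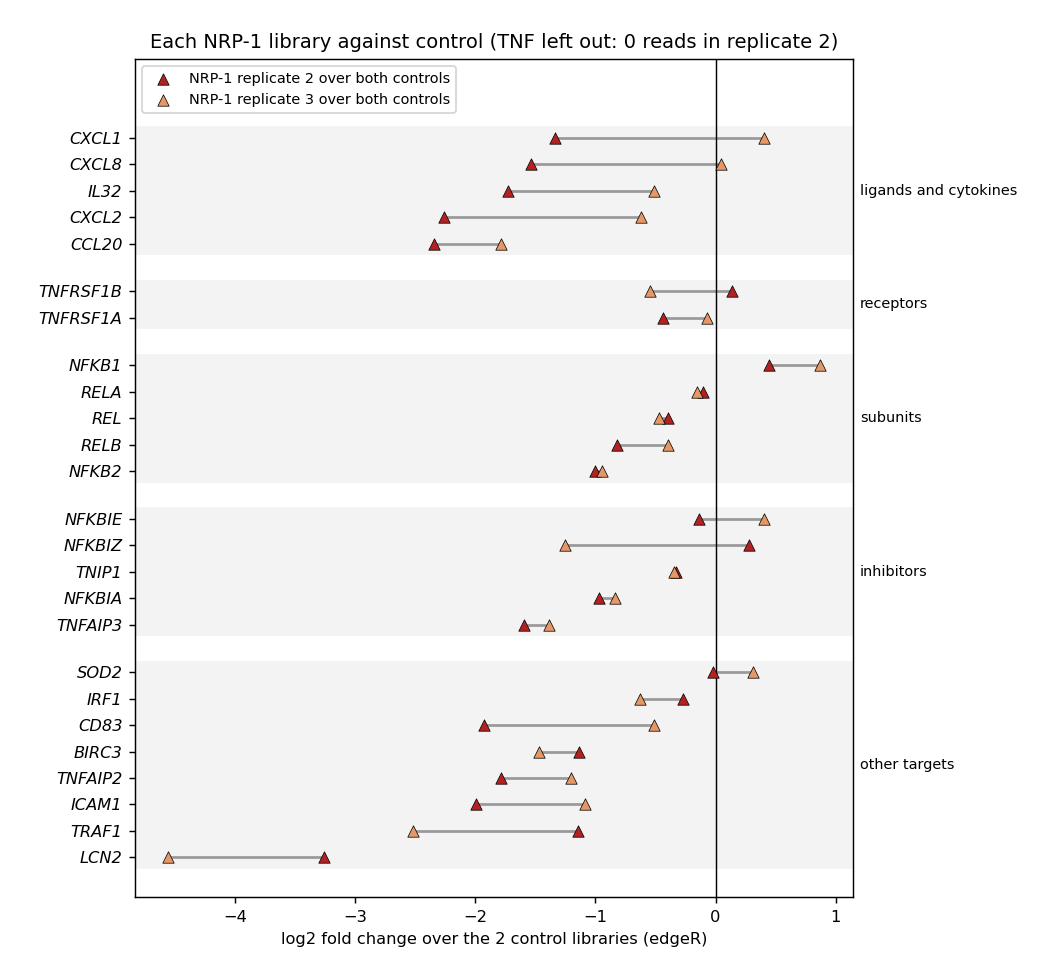
Log2 fold change of each NRP-1 library over the 2 control libraries for 25 of the tested genes, with a line joining the 2 values of a gene. NFKB2, NFKBIA, TNIP1 and RELA have short lines, CXCL1, CXCL8 and NFKBIZ have long lines that cross 0, and LCN2 is farthest left in both. TNF is left out because replicate 2 had 0 reads.

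Beyond the members, 40 genes of the signalling machinery between receptor and nucleus were read from the same fit (kinases, adaptors, ubiquitin enzymes and receptors). Of these 37 were tested, 15 with a log2 fold change below 0 and 22 above, with a median of 0.10. Only RBCK1 was called, where 1.09% of all genes were. It encodes HOIL-1L, a part of the complex that builds linear ubiquitin chains at the TNF receptor. RBCK1 had 2215 and 2255 reads in the controls and 918 and 723 in the NRP-1 libraries, and fell by 1.50 on the log2 scale (SE 0.15, adjusted p = 0.036). The groups were far apart, and the call was lost with limma. The other subunits of that complex, named after their values were seen, were RNF31 at 0.15 (adjusted p = 0.559) and SHARPIN at -0.22 (adjusted p = 0.404).

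Next lowest were TRADD, the adaptor of TNFR1, with 264 and 306 reads in the controls and 206 and 164 in the NRP-1 libraries (log2 fold change -0.68, adjusted p = 0.112), and CYLD, a deubiquitinase that restrains the pathway, with 323 and 309 against 224 and 190 (log2 fold change -0.67, adjusted p = 0.092). The highest were NFKBID, a nuclear IkB protein, at 0.80 (adjusted p = 0.387), IL1R1, the receptor of interleukin-1, at 0.62 (adjusted p = 0.325), and RIPK1, the kinase of the TNFR1 complex, at 0.61 (adjusted p = 0.097). NFKBID had 35 and 32 reads in the controls and 33 and 89 in the NRP-1 libraries, and its log2 fold change was -0.079 without NRP-1 replicate 3. IL1R1 had 158 and 246 against 415 and 233, and its log2 fold change was 0.14 without NRP-1 replicate 2. In both genes the groups overlapped. RIPK1 had 306 and 296 reads in the controls and 521 and 434 in the NRP-1 libraries, without overlap. At an unadjusted p under 0.05, 4 of the 37 were lower, which is 10.8% against 12.1% of all genes. At the same limit 3 were higher, against 10.8% of all genes.

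A list of 35 further NF-kB targets gave 23 tested genes, 15 below 0 and 8 above, with a median of -0.27. With edgeR 0 of them were called, against 1.09% of all genes. At an unadjusted p under 0.05, 6 were lower and 1 higher, against 12.1% and 10.8% of all genes, and DESeq2 called 4 lower, against 3.89%. The lowest were CFB, complement factor B, with 55 and 49 reads in the controls and 9 and 18 in the NRP-1 libraries (log2 fold change -1.995, SE 0.41, adjusted p = 0.073), PIGR, the transporter of polymeric antibodies, with 165 and 227 against 73 and 47 (log2 fold change -1.76, adjusted p = 0.056), and ZC3H12A, a ribonuclease that degrades cytokine mRNAs, with 223 and 248 against 111 and 83 (log2 fold change -1.34, adjusted p = 0.055). At the other end CXCL5, a neutrophil chemokine, had 20 and 15 reads against 23 and 93 (log2 fold change 1.66, adjusted p = 0.223). PLAU, the protease urokinase, had 20 and 8 against 18 and 58 (log2 fold change 1.37, adjusted p = 0.302), and LIF, a cytokine of the interleukin-6 family, had 21 and 21 against 20 and 54 (log2 fold change 0.75, adjusted p = 0.440). In these last 3 genes only NRP-1 replicate 3 was above the controls by a wide margin.

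**Figure D5:**
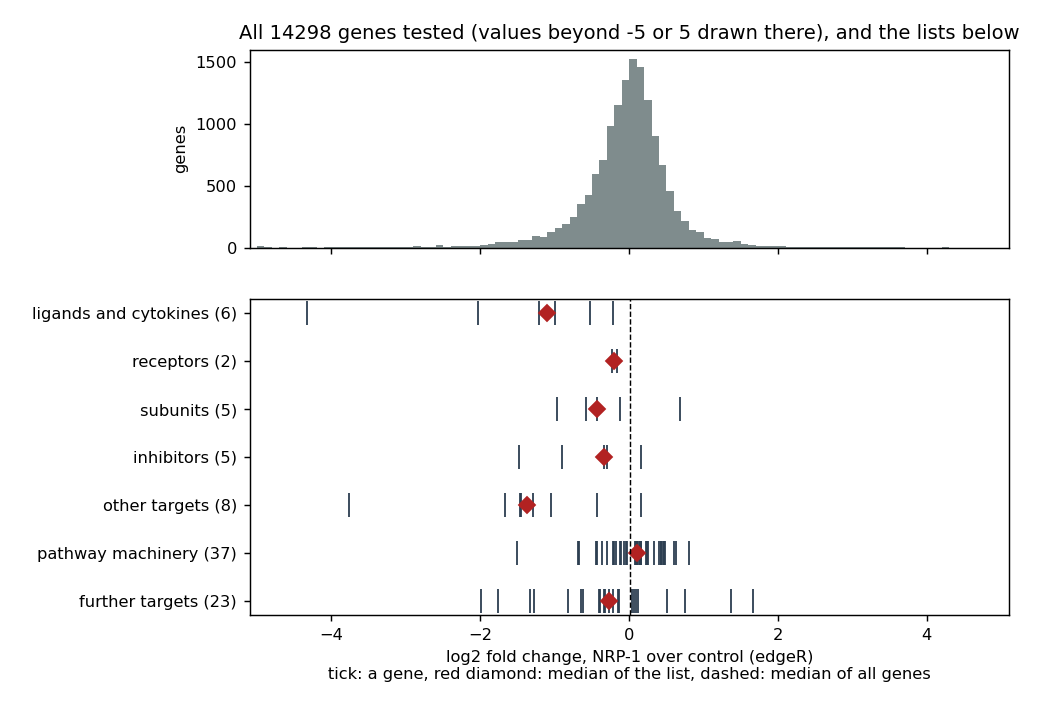
Top, number of genes by log2 fold change (NRP-1 over control) among all 14298 genes tested. Bottom, each tested gene of a list as a tick and the median of the list as a red diamond, with the number of genes in brackets and the median of all genes as a dashed line. The other targets (-1.37) and the ligands and cytokines (-1.10) have their medians farthest to the left, and the pathway machinery (0.10) has its median right of 0.

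Among the tested members, those with a consensus match in the promoter had a median log2 fold change of -0.94 (12 genes, from -3.77 to 0.68) and those without one had -0.75 (12 genes, from -4.32 to 0.16). LCN2, TNFAIP3, BIRC3 and NFKBIA hold a match and had log2 fold changes from -3.77 to -0.90, while NFKB1 holds one and was at 0.68. TNF, TNFAIP2, ICAM1 and NFKB2 hold none in this window, which says only that these letters are not in these 250 bases. Over all genes tested with a promoter in the table, 647 of 11225 (5.76%) held a match, and their median was 0.019 against 0.025 without one.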

How the data were processed

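The authors sequenced messenger RNA of 2 control and 2 BT-474 NRP-1 libraries on an Illumina instrument and deposited, for each library, the expected count and the FPKM per gene. The submitters' processing notes name bcl2fastq 2.16, HISAT2 2.0.1, Bowtie2 2.2.5 and RSEM. They name both GRCh38 and hg19 with no role, so no gene coordinates are given. A further table with the authors' own comparison (group means, log2 ratios and probabilities of selected genes) was not used. An expected count shares reads between similar genes, and 32.4% to 32.9% of the listed genes in a library had a value that was not whole. Whether strand was kept is not given in the sources used here, so reads from antisense transcripts could not be told apart.

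NCBI Gene IDs were matched to symbols (99.4% of 18882). Expected counts were rounded and tested in edgeR 4.0.16 (R 4.3.3) with TMM factors (0.986 to 1.014), filterByExpr and the quasi-likelihood test over 14298 genes, with Benjamini-Hochberg adjustment over all of them and group as the only term. Medians over a list are descriptions without a test. The alternatives were DESeq2 1.42.0, limma 3.58.1 on the log2 of the deposited FPKM plus a pseudocount of 1 or 0.1 (mean FPKM of at least 0.5), no filter on low counts, library sizes without TMM, leaving out each library, and summing near-identical genes. Depth was alike in the 4 libraries, and 3 reads, the limit for a count of 0, were 0.355 to 0.364 CPM. The test code was checked on simulated data. The simulation gave both groups the same spread, unlike these libraries, so it does not cover how the test behaves when the spread differs.

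The members and the lists of pathway machinery, further targets and markers were chosen with earlier results of these data known. All members, NRP1, and in each added list the called genes and the 3 highest and 3 lowest log2 fold changes (mean of at least 10 reads) were named. Promoter sequences are from RefSeq. Of the 35 members 6 were not in that table: CCL2, NFKBIE, RELB, SAA1, SAA2 and C3.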

Additional observations from a re-analysis of the deposited data

How the results depend on the processing

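Which genes passed the test depended on the processing. The number of members called was 2 with edgeR, 8 with DESeq2 (all lower: TNF, NFKB2, NFKBIA, TNFAIP3, LCN2, TNFAIP2, BIRC3 and ICAM1), 1 with library sizes without TMM (LCN2), and 0 with limma at either pseudocount or with no filter on low counts. The pathway machinery had 1 called gene, and 0 with limma at either pseudocount or with no filter. The further targets had 0 called genes, and 4 with DESeq2. Over all genes 156 were called, 954 with DESeq2, 7 and 3 with limma at pseudocounts of 1 and 0.1, and 0 with no filter. Leaving out 1 library gave 0 to 16 members called, 7 to 19 members at an unadjusted p under 0.05 (11 with all 4 libraries), 0 to 13 genes of the machinery, 0 to 13 further targets and 0 to 5414 of all genes. The 0 came with either control left out. The highest values for members came without NRP-1 replicate 3, and those for the machinery, further targets and all genes without NRP-1 replicate 2. In these fits the spread is that of the controls alone, and the lone NRP-1 library is assumed to vary like them. The ranges thus mix fits, and no share of all genes at an unadjusted p is given for them. They cannot show whether any list had more such genes than the background.

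Directions changed less often than calls. Settings that keep all 4 libraries reuse the same data, and most members were not called to begin with. Little change could come from them, so the next count is no test of robustness. Without a library left out, 117 of 130 values (2 of them the sum of CXCL1, CXCL2 and CXCL3, set beside CXCL1 and CXCL2) kept direction and side of the threshold, 6 gained a call, 7 lost one and 0 changed sign. The median of the subunits was -0.31 with limma at a pseudocount of 1, and that of the other targets was -0.72 and -1.27 at 1 and 0.1. With a library left out, medians ranged from -1.996 to -0.57 (ligands and cytokines), -0.31 to -0.066 (receptors), -0.84 to -0.17 (inhibitors) and -1.47 to -1.14 (other targets). Of 103 values of single members, 8 then changed sign. CXCL1 ranged from -1.34 to 0.40, being above 0 without NRP-1 replicate 2 and also, at 0.14, without the second control. CXCL8 ranged from -1.54 to 0.050, above 0 without NRP-1 replicate 2. TNFRSF1B ranged from -0.55 to 0.19, above 0 without the first control and, at 0.13, without NRP-1 replicate 3. NFKBIE (-0.14 to 0.40), NFKBIZ (-1.25 to 0.28) and SOD2 (-0.021 to 0.32) changed sign without NRP-1 replicate 3. No fold change was given for TNF without NRP-1 replicate 3, where the lone NRP-1 library had 0 reads, and TNFRSF1B was under the FPKM filter of limma. The cause of these differences was not tested. No paired analysis was possible because the groups share only replicate number 2. With 2 libraries a group, depth limits members under about 30 reads, such as TNFRSF1B and CXCL2.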

Other observations

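Genes of the same families that are not members were read from the same fit, chosen by symbol after values were seen. Genes of the lists described above were left out. Of 14 other genes named TNFRSF, 9 were tested and 1 was called with edgeR, against 1.09% of all genes. Their median log2 fold change was -0.17. In 3 both NRP-1 libraries lay below both controls and in 3 above, against 28.3% and 27.9% of all genes. TNFRSF10B, a receptor for the death ligand TRAIL, had 952 and 1107 reads in the controls and 438 and 480 in the NRP-1 libraries, and fell by 1.22 on the log2 scale (SE 0.14, adjusted p = 0.038). TNFRSF19 had 43 and 46 reads against 103 and 101, with nearly equal libraries within each group (log2 fold change 1.14, SE 0.23, adjusted p = 0.072). Of 10 other genes named TNFSF, 4 were tested and 0 were called with edgeR, against 1.09% of all genes, while 1 was lower and 1 higher at an unadjusted p under 0.05, against 12.1% and 10.8% of all genes. TNFSF15, a ligand of the TNF superfamily, had 251 and 337 reads in the controls and 1442 and 764 in the NRP-1 libraries (log2 fold change 1.85, SE 0.32, adjusted p = 0.061), and DESeq2 called it higher.

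Among 13 other chemokine ligands, 5 were tested and 1 was called with edgeR, against 1.09% of all genes. Their median log2 fold change was 0.067. In 1 gene both NRP-1 libraries lay below both controls and in 1 above, against 28.3% and 27.9% of all genes. CXCL17 had 203 and 244 reads in the controls and 480 and 550 in the NRP-1 libraries, and rose by 1.15 on the log2 scale (SE 0.16, adjusted p = 0.047). CXCL12, the ligand of CXCR4, had 341 and 495 reads against 147 and 293 (log2 fold change -0.98, SE 0.35, adjusted p = 0.173). With either control library left out, the calls of TNFRSF10B and CXCL17 were lost, as was every other edgeR call.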
